A study of Mus musculus with 6 samples.

Results

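The adherens junction genes described here are 10 genes of 3 protein families and an adaptor: the cadherins Cdh2 and Cdh11, the catenins Ctnna1, Ctnnb1, Ctnnd1 and Jup, the nectins Nectin1, Nectin2 and Nectin3, and Afdn. They were chosen by symbol, with earlier results of these data known, and all 10 were found among the 24354 genes of the expression table. The RNA-seq libraries came from TM4, an established mouse Sertoli cell line grown in medium with serum. They comprised 3 libraries of cells treated with 100 nM aluminium chloride (AlCl3) and 3 control libraries, all labelled day 30, with AlCl3 given for 30 days. The labels name no vehicle for the controls. Whether replicates were grown as separate cultures is not said, and any p-value here reflects the spread of these 6 libraries alone, which may be of technical origin. The study asked which mRNAs differ after this exposure, and its title names testicular tight junctions and embryonic exposure, whereas the libraries come from cultured cells.

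Adherens junctions hold neighbouring cells together. Cadherins bind each other across the gap between cells through calcium-dependent outer domains, and their tails bind beta-catenin or plakoglobin, which recruit alpha-catenin and, through it, actin filaments. Nectins form a second, calcium-independent adhesion system whose tails bind afadin, another actin-binding adaptor. In the seminiferous epithelium, Sertoli cells carry N-cadherin and Nectin2, and Nectin2 pairs with Nectin3 on spermatids at the apical ectoplasmic specialization. TM4 cultures hold no germ cell partner by their labels.

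All 10 members had a mean of at least 1 FPKM (reads per kilobase of exon, scaled by the reads of each library) over the 6 libraries and were tested. Of them 4 rose, 3 fell and 3 did not pass (limma on log2(FPKM + 1), Benjamini-Hochberg adjusted p under 0.05 over 11202 genes). Of all genes tested, 61.3% were called, 31.2% as higher and 30.2% as lower in AlCl3, so 7 calls among 10 members lie near the share of all genes. The groups did not overlap in 6 members, with 4 of them higher and 2 lower, beside 66.1% of all genes tested (33.7% higher and 32.4% lower). The median log2 fold change was 0.10 over the members and 0.03 over all genes tested. Listed by family, both cadherins among the members rose, Ctnnb1 and Ctnna1 rose while Jup fell, and Nectin2 fell. Families this small cannot be set apart from the share of all genes called. Ctnnd1, Nectin1 and Nectin3 did not pass, and Afdn, the afadin gene, passed narrowly as lower. In bulk RNA, fewer cells of a type and less RNA per cell cannot be told apart.

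**Figure D1:**
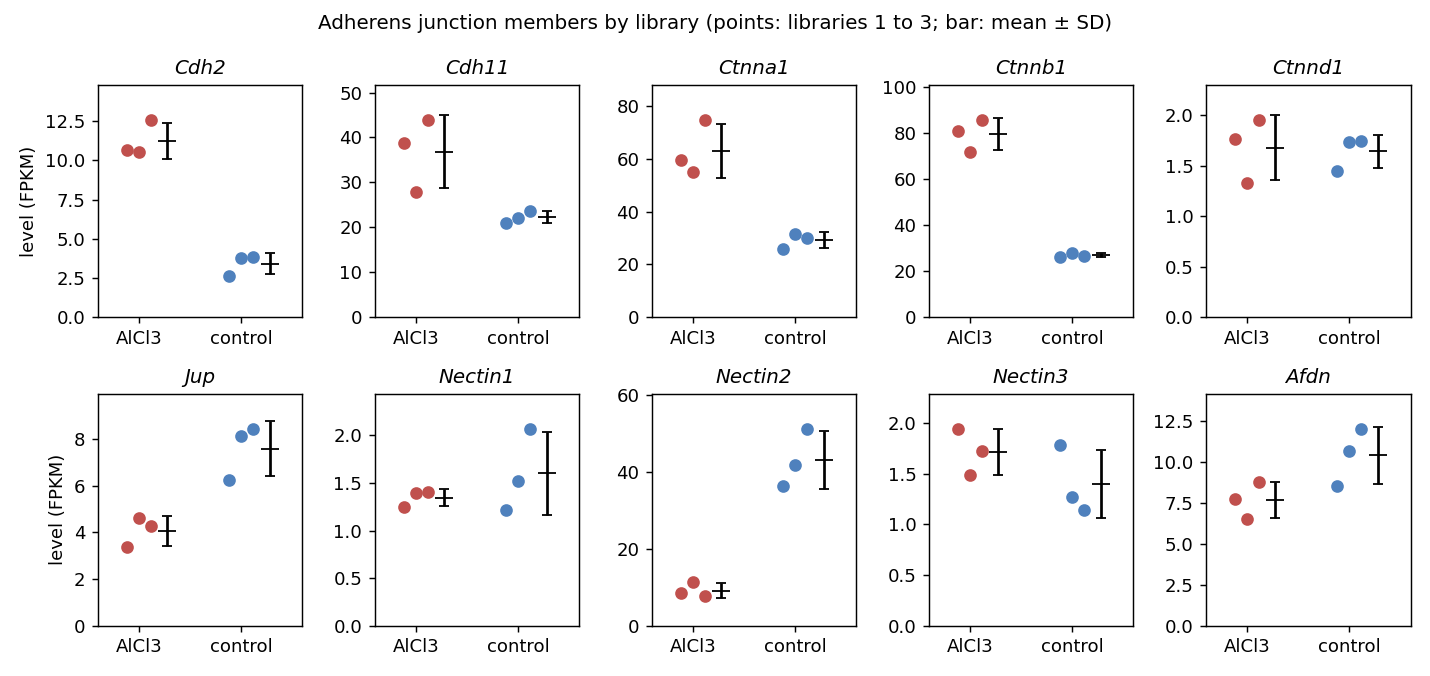
Level of each of the 10 members in FPKM (vertical axes, each from 0) in the AlCl3 libraries (red, left) and the control libraries (blue, right). Points are libraries 1 to 3 from left to right within a group, and bars give the mean ± SD. The groups stand apart for Cdh2, Cdh11, Ctnna1, Ctnnb1, Jup and Nectin2 and overlap for Ctnnd1, Nectin1, Nectin3 and Afdn.

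Depth and cell identity were read from the same table. Reads in genes, recovered from the steps of the FPKM values, ranged from 13583554 to 17608615 in the AlCl3 libraries and from 16602253 to 17397265 in controls. The shallowest library was AlCl3 2. Correlations of log2 values lay between 0.978 and 0.993 within groups and between 0.874 and 0.904 across them. Of 14 Sertoli markers with a row, 7 were tested, of which 1 rose and 4 fell. The summed level of the 14 was 62.1 to 64.1 FPKM in AlCl3 and 81.9 to 117 FPKM in controls, carried mostly by Inhbb (46.0 ± 2.58 FPKM in AlCl3 and 72.1 ± 13.1 FPKM in controls). Gata4 averaged 6.33 FPKM in AlCl3 and 11.6 FPKM in controls, and Sox9, the marker that rose, 1.61 FPKM in AlCl3 and 1.01 FPKM in controls. Dhh and Inha also fell, by 1.32 and 1.09 on the log2 scale (limma adjusted p = 1.9e-05 and 2.2e-04). Wt1 stayed between 0.0119 and 0.0188 FPKM in AlCl3 and between 0.111 and 0.201 FPKM in controls, and Amh reached at most 0.204 FPKM in AlCl3 and 0.0721 FPKM in controls, so both of these defining markers stayed below 1 FPKM. At their exon lengths, Wt1 in AlCl3 and Amh in controls amounted to fewer than 3 reads in each library. Retina markers were included because the extraction text speaks of that tissue, and 6 of them together reached at most 0.261 FPKM in AlCl3 and 0.194 FPKM in controls. Markers of germ cells (2 with a row), endothelium (4) and epithelium (4) had summed levels of at most 0.0953, 0.187 and 0.242 FPKM in any library. The 6 peritubular myoid and smooth muscle markers summed to 180 to 207 FPKM in AlCl3 and 460 to 491 FPKM in controls, carried mostly by Acta2. The 4 Leydig markers summed to 7.77 to 10.4 FPKM in AlCl3 and 10.8 to 13.6 FPKM in controls. Nr2f2 carried most of that sum, with means of 8.39 FPKM in AlCl3 and 11.2 FPKM in controls. The other Leydig markers stayed below 1 FPKM in every library and were not tested. The 5 macrophage and leukocyte markers summed to 31.0 to 33.4 FPKM in AlCl3 and 8.18 to 10.1 FPKM in controls, carried mostly by Cd14. The part of these shifts in the members' changes was not tested.

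The promoters of Ctnnb1, Jup and Nectin2 are printed because Nectin2 had the largest fall among the members, Ctnnb1 rose 2.97-fold and Jup is the close relative of Ctnnb1 that fell. RefSeq promoters (GRCm38.p6, 250 bases before to 50 after a start) were matched for 6 members, with 8 starts in all. The lines give, 5′ to 3′ on the gene's strand, the upstream of 2 Ctnnb1 starts (chr9:120933150-120933449, plus strand), Jup (chr11:100397741-100398040, minus strand) and Nectin2 (chr7:19749524-19749823, minus strand). Capitals mark matches, on either strand, to any of 7 motifs. These were the GC box GGGCGG, the E-box CAGGTG that Snail and Zeb repressors bind, the TCF/LEF core CTTTGA and the box CCAAT. The others were the AP-1 site TGANTCA, the core TGACG of cAMP response elements and the TATA box TATAAA.
Ctnnb1: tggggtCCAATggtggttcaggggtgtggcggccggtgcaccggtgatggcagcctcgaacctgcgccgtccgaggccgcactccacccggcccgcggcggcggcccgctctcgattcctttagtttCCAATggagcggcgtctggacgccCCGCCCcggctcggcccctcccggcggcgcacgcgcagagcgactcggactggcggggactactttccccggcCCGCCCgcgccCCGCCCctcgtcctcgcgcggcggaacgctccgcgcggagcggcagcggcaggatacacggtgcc
Jup: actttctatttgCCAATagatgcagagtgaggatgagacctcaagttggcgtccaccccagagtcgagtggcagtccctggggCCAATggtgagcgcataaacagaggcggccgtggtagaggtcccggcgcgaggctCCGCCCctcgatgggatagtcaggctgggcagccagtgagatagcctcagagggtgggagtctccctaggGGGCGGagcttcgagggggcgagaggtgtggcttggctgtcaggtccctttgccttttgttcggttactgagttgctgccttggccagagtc
Nectin2: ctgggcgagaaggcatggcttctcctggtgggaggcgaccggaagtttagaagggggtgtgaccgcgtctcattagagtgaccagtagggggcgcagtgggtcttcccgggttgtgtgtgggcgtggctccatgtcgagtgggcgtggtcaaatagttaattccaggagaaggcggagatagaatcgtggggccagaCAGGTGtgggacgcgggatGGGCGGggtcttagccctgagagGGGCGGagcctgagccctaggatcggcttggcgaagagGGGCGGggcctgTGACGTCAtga
The upstream Ctnnb1 window held 3 GC boxes and 2 CCAAT boxes, and the Jup window held 2 of each. The window of the other Ctnnb1 start (chr9:120933328-120933627), not printed, held 3 GC boxes, 2 TGACG matches, 1 TATAAA and 0 CCAAT boxes. The Nectin2 window held 3 GC boxes, 1 E-box and 2 overlapping TGACG matches that together spell a full palindromic element, and no CCAAT box. Over all 32851 promoters of that length, 35.7% held a GC box, 37.4% CCAAT, 20.2% the E-box, 20.8% TGACG, 16% CTTTGA, 7.81% TGANTCA and 13.6% TATAAA. None of the 3 printed windows held CTTTGA or TGANTCA. GC content was 75.3% in the upstream Ctnnb1 window, 60.7% in that of Jup and 62.7% in that of Nectin2, against a median of 52.7% over all promoters. These matches describe the letters of the windows, and binding was not measured.

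Both cadherins rose. Cdh2 (N-cadherin, the main classical cadherin of Sertoli cells) stood at 10.6, 10.5 and 12.6 FPKM in AlCl3 1 to 3, against 2.61, 3.79 and 3.85 FPKM in control 1 to 3. All 3 AlCl3 libraries lay above all 3 controls, and control 1 was the lowest library. The means were 11.2 ± 1.15 FPKM in AlCl3 and 3.41 ± 0.700 FPKM in controls (SD, n = 3 each), a 3.29-fold rise and a log2 fold change of FPKM + 1 of 1.48 (SE 0.15, limma adjusted p = 3.4e-05). Of the genes tested, 7.53% changed by as much in either direction. Cdh2 (ENSMUSG00000024304) lies on the minus strand of chromosome 18 from 16588877 to 16809246 in GRCm38.

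Cdh11 (osteoblast cadherin, a type II cadherin of mesenchymal cells) was the more abundant cadherin in every library. It stood at 38.7, 27.9 and 43.8 FPKM in AlCl3 1 to 3, against 20.99, 22.0 and 23.7 FPKM in control 1 to 3. The groups did not overlap, with AlCl3 2 the nearest to the controls. The log2 fold change was 0.68 (SE 0.16, limma adjusted p = 0.0055), from means of 36.8 ± 8.12 FPKM in AlCl3 and 22.2 ± 1.37 FPKM in controls (SD, n = 3 each). Its exons lie on the minus strand of chromosome 8 between 102632095 and 102785642. The level is uncertain, because 7 other genes of the table match 589 to 990 bases of the longest coding Cdh11 transcript at 95% identity or more. These 7 genes held 3851 reads in AlCl3 and 7590 in controls, while Cdh11 held 16142 in AlCl3 and 10089 in controls. How the authors' counting divided reads between them is not given in the sources used here, and Cdh11 with the 7 genes held 19993 reads in AlCl3 and 17679 in controls.

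The share of Cdh2 in the sum of Cdh2 and Cdh11 was larger in every AlCl3 library than in any control. Cdh2 made up 21.6%, 27.4% and 22.3% of their summed FPKM in AlCl3 1 to 3, against 11.04%, 14.7% and 14.0% in control 1 to 3. The log2 ratio of Cdh2 over Cdh11 was 1.03 higher in AlCl3 (exact two-sided permutation test, p = 0.1, adjusted p = 0.11 over the 8 ratios compared). A p of 0.1 is the smallest that 3 against 3 libraries allow. The 2 genes together reached 48.1 ± 9.05 FPKM in AlCl3 and 25.7 ± 1.99 FPKM in controls.

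Ctnnb1 and Jup, which bind the same site of cadherin tails, moved in opposite directions. Ctnnb1 (beta-catenin, the tail partner of classical cadherins and the co-activator of Wnt signalling) stood at 81, 71.8 and 85.5 FPKM in AlCl3 1 to 3, against 26.1, 27.8 and 26.5 FPKM in control 1 to 3. The groups were far apart, and the controls lay closer to each other than the AlCl3 libraries did. The log2 fold change was 1.53 (SE 0.12, limma adjusted p = 7.8e-06), a 2.97-fold rise, and 6.74% of genes tested changed by as much. Ctnnb1 (ENSMUSG00000006932) lies on the plus strand of chromosome 9 from 120929216 to 120960507. It shares 759 exon bases with Ulk4 on the opposite strand, which held 485 reads in AlCl3 and 245 in controls, while Ctnnb1 held 20085 in AlCl3 and 7075 in controls. The strand setting of the counting is not given in the sources used here, so reads of the shared bases cannot be told apart.

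Jup (plakoglobin, which binds the same cadherin tails and also sits in desmosomes) fell. It stood at 3.35, 4.598 and 4.26 FPKM in AlCl3 1 to 3, against 6.23, 8.12 and 8.43 FPKM in control 1 to 3. All AlCl3 libraries lay below all controls. The log2 fold change was -0.76 (SE 0.15, limma adjusted p = 0.0019), and it shrank to -0.27 (adjusted p = 0.023) with the GC and length trend taken out. Jup (ENSMUSG00000001552) lies on the minus strand of chromosome 11 from 100368958 to 100397763.

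Within each library Ctnnb1 exceeded Jup 24.2-, 15.6- and 20.05-fold in AlCl3 1 to 3, against 4.19-, 3.42- and 3.14-fold in control 1 to 3. The difference in the log2 ratio was 2.46 (exact two-sided permutation p = 0.1, adjusted p = 0.11 over the 8 ratios). It had the second largest size of the 8 ratios, after Nectin3 over Nectin2. The GC and length trend was not taken out of any ratio, and Jup and Nectin2 both lie in the highest GC class described below. Of the listed desmosomal partners of plakoglobin, 5 had a row and 0 reached 1 FPKM, their sum being at most 0.0417 FPKM in AlCl3 and 0.0380 FPKM in controls. That list left out the plakophilins, which were listed with the relatives of the catenins.

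Ctnna1 (alpha-catenin, the link from beta-catenin to actin) rose with Ctnnb1 but by less. It stood at 59.8, 55.0 and 74.7 FPKM in AlCl3 1 to 3, against 25.7, 31.6 and 29.9 FPKM in control 1 to 3. The groups were apart, with AlCl3 3 the highest library. Its log2 fold change was 1.09 (SE 0.15, limma adjusted p = 1.8e-04), a 2.17-fold rise. Ctnna1 per Ctnnb1 was 0.739, 0.766 and 0.874 in AlCl3 1 to 3, against 0.986, 1.14 and 1.13 in control 1 to 3. That log2 ratio was 0.45 lower in AlCl3, a difference of -0.45 (exact two-sided permutation p = 0.1, the smallest possible). Ctnna1 (ENSMUSG00000037815) lies on the plus strand of chromosome 18 from 35118859 to 35254779, and 95 of its exon bases overlap Lrrtm2 on the opposite strand (74 reads in AlCl3 and 7 in controls).

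Ctnnd1 (p120-catenin, which binds the cadherin tail near the membrane and slows its endocytosis) did not pass. It stood at 1.76, 1.33 and 1.95 FPKM in AlCl3 1 to 3, against 1.45, 1.73 and 1.74 FPKM in control 1 to 3. The groups overlapped, and the log2 fold change was 0.02 with a 95% interval from -0.29 to 0.32 (limma adjusted p = 0.93). Per Ctnnb1 it was 0.0217, 0.0185 and 0.0228 in AlCl3 1 to 3, against 0.0555, 0.0624 and 0.0658 in control 1 to 3. Its low level is uncertain. On the minus strand of chromosome 2, between 84600071 and 84650765, 4482 of its 7319 exon bases are also exons of the gene Gm28635 on that strand. Gm28635 is not among the genes of the expression table, so no reads can be given for it. How reads in shared exons were counted is not given in the sources used here.

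Together the 4 catenins reached 148 ± 17.0 FPKM in AlCl3 and 65.1 ± 5.03 FPKM in controls (SD, n = 3 each). Ctnnb1 held 53.7% ± 2.105 of that sum in AlCl3 and 41.2% ± 2.26 in controls, while Jup held 2.77% ± 0.612 in AlCl3 and 11.6% ± 1.10 in controls. The share of Ctnna1 was 42.4% ± 2.14 in AlCl3 and 44.6% ± 1.24 in controls. Ctnnb1 over Cdh2, the ratio of the beta-catenin to the N-cadherin mRNA, overlapped between groups, at 6.80 to 7.61 in AlCl3 and 6.88 to 10.0 in controls (exact two-sided permutation p = 0.5, adjusted p = 0.5 over the 8 ratios).

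**Figure D2:**
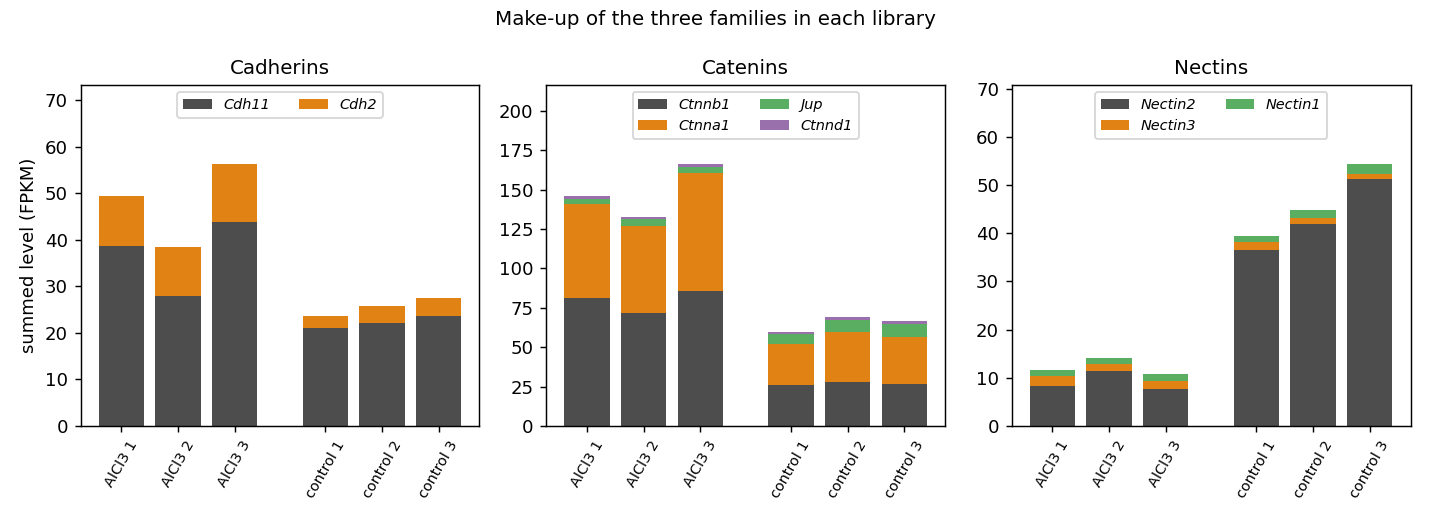
Summed level in FPKM (vertical axes from 0) of the 2 cadherins, 4 catenins and 3 nectins in each library, AlCl3 left and control right, stacked by gene. Cadherin and catenin sums are higher in every AlCl3 library, while the nectin sums are lower and consist mostly of Nectin2.

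Nectin2 had the largest change of the 10 members. Nectin2, the nectin of Sertoli cells, stood at 8.39, 11.3 and 7.62 FPKM in AlCl3 1 to 3, against 36.4, 41.9 and 51.2 FPKM in control 1 to 3. The groups were far apart, the highest AlCl3 library being AlCl3 2 and the lowest control being control 1. The means were 9.10 ± 1.94 FPKM in AlCl3 and 43.2 ± 7.49 FPKM in controls (SD, n = 3 each). The log2 fold change was -2.13 (SE 0.17, limma adjusted p = 1.0e-05), and 1.55% of genes tested changed by as much in either direction. Among the 11202 genes it ranked 108 from the lowest log2 fold change. Nectin2 (ENSMUSG00000062300) lies on the minus strand of chromosome 7 from 19716644 to 19750483. The antisense gene Gm20512 overlaps 135 of its exon bases and held 0 reads in AlCl3 and 5 in controls.

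Nectin3 (the main partner that Nectin2 binds across cells) did not pass. It stood at 1.94, 1.48 and 1.72 FPKM in AlCl3 1 to 3, against 1.78, 1.27 and 1.14 FPKM in control 1 to 3, and the groups overlapped. Its log2 fold change was 0.18 with a 95% interval from -0.14 to 0.50 (limma adjusted p = 0.28). Nectin1 (the nectin that also serves as a herpesvirus receptor) stood at 1.25, 1.39 and 1.40 FPKM in AlCl3 1 to 3, against 1.21, 1.52 and 2.07 FPKM in control 1 to 3. Its groups overlapped too, with control 3 the highest library. The log2 fold change was -0.14 with a 95% interval from -0.46 to 0.19 (limma adjusted p = 0.44). With the GC and length trend taken out, Nectin1 was higher instead, at 0.35 (adjusted p = 0.011). Nectin3 lies on the minus strand of chromosome 16 from 46387706 to 46498525 and Nectin1 on the plus strand of chromosome 9 from 43743984 to 43807461. Ctnnd1, Nectin1 and Nectin3 held between 124 and 435 reads in each library.

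Nectin2 remained the most abundant nectin mRNA in all 6 libraries. It made up 72.5%, 79.7% and 70.9% of the summed nectin FPKM in AlCl3 1 to 3, against 92.4%, 93.7% and 94.1% in control 1 to 3. The log2 ratio over Nectin2 was 2.56 higher in AlCl3 for Nectin3 and 2.04 higher for Nectin1, with groups apart in both (exact two-sided permutation p = 0.1, adjusted p = 0.11 over the 8 ratios). The nectin sum was 12.2 ± 1.79 FPKM in AlCl3 and 46.2 ± 7.62 FPKM in controls.

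Afdn (afadin, the actin-binding adaptor of nectin tails) was called lower by a small margin. It stood at 7.77, 6.55 and 8.76 FPKM in AlCl3 1 to 3, against 8.56, 10.7 and 12.02 FPKM in control 1 to 3. AlCl3 3 lay above control 1, so the groups overlapped. Its log2 fold change was -0.39 (SE 0.15, limma adjusted p = 0.049). The call was lost without AlCl3 1, AlCl3 2, control 2 or control 3 (adjusted p from 0.10 to 0.16), when all genes were kept (0.11) and after rescaling to TPM (0.26). Afdn per Nectin2 was 0.927, 0.580 and 1.15 in AlCl3 1 to 3, against 0.235, 0.254 and 0.235 in control 1 to 3 (difference in log2 ratio 1.82, exact two-sided permutation p = 0.1). Part of its longest coding transcript matches Zfp160 at 95.9% identity over 999 bases. Afdn (ENSMUSG00000068036) lies on the plus strand of chromosome 17 from 13760539 to 13906150, and 221 of its exon bases overlap Tcte2 on the opposite strand (21 reads in AlCl3 and 28 in controls).

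**Figure D3:**
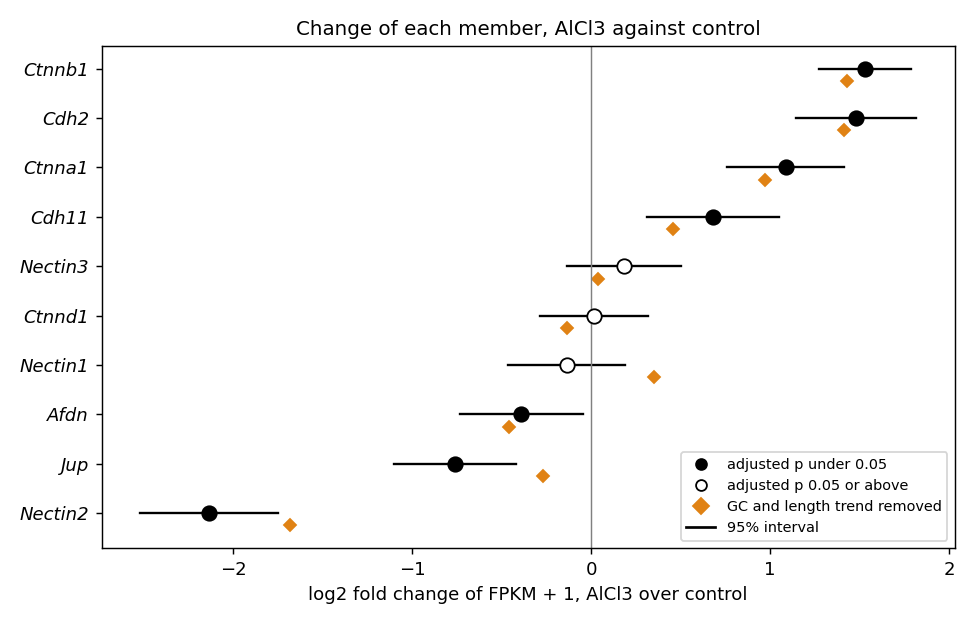
Log2 fold change of FPKM + 1, AlCl3 over control (horizontal axis), for each member. Circles are limma estimates with 95% intervals, filled where the adjusted p is under 0.05, and diamonds give the estimate with the GC and length trend taken out. Nectin2 lies at -2.13 and Ctnnb1 at 1.53, and the diamond of Nectin1 lies on the other side of 0 from its circle.

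The order of levels also differed between groups. By mean FPKM the order in AlCl3 was Ctnnb1, Ctnna1, Cdh11, Cdh2, Nectin2, Afdn, Jup, Nectin3, Ctnnd1 and Nectin1. In controls it was Nectin2, Ctnna1, Ctnnb1, Cdh11, Afdn, Jup, Cdh2, Ctnnd1, Nectin1 and Nectin3. Neighbours whose ranges overlapped in AlCl3 were Ctnnb1 and Ctnna1, Cdh2 and Nectin2, Nectin2 and Afdn, and the 3 lowest genes. In controls the ranges overlapped for Ctnna1 and Ctnnb1 and among the 3 lowest genes. Nectin2 thus came after both cadherins in AlCl3 and headed the list in controls, and Cdh2 stood above Afdn and Jup in AlCl3 and below both in controls.

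The members also differed in base composition, along which fold changes ran across the whole table. The longest transcripts of Nectin1, Jup and Nectin2 had a GC content of 59.1%, 58.8% and 58.0%, which puts them in the highest of 10 equal classes, where the median log2 fold change of all genes was -0.53. The other 7 members had 44.9% to 50.3% GC, in classes with medians from 0.01 to 0.28. With the GC and length trend taken out, Nectin2 stood at -1.68 on the log2 scale (limma adjusted p = 2.4e-05) and Ctnnb1 at 1.43 (adjusted p = 1.0e-05). Cdh2 stood at 1.41, Ctnna1 at 0.97, Cdh11 at 0.46 and Afdn at -0.46 in that fit, all past the threshold.

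Other genes of the junction were read from 9 lists of 107 genes, of which 96 had a row and 73 were tested. Of these 18 rose and 22 fell, with a median log2 fold change of -0.01, beside 31.2% and 30.2% of all genes and a median of 0.03. With the GC and length trend taken out, the counts were 27 higher and 21 lower. Each list is described by its most abundant genes, up to 3, whatever their change.

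The list of other cadherins held 13 genes, and cadherins outside it were not looked up. Of its 8 genes with a row, Cdh24 (a type II cadherin) alone was tested. It fell to 6.61 ± 0.786 FPKM in AlCl3, against 13.96 ± 1.58 FPKM in controls (log2 fold change -0.97, limma adjusted p = 1.9e-04), and its mean was below that of Cdh2 in AlCl3 and above it in controls. With the GC and length trend taken out, the log2 fold change of Cdh24 was -0.38 (adjusted p = 0.0028). Cdh1 (E-cadherin) reached at most 0.0510 FPKM in AlCl3 and 0.0129 FPKM in controls, the latter worth fewer than 3 reads. Cdh5 (VE-cadherin of endothelium) had 0.0416 to 0.135 FPKM in AlCl3 and was listed at 0 in all controls. Among relatives of the catenins 2 of 4 rose and 2 fell. Ctnnal1 (alpha-catulin, a relative of alpha-catenin) rose to 13.3 ± 1.48 FPKM in AlCl3, against 2.69 ± 0.524 FPKM in controls (log2 fold change 1.96, limma adjusted p = 6.7e-06). Pkp4 (a relative of p120-catenin) rose by 1.03 (adjusted p = 2.4e-04), and Pkp2 (a desmosomal plakophilin) fell by 0.75 on the log2 scale (adjusted p = 5.3e-04). Arvcf, another p120 relative, fell by 1.27 (limma adjusted p = 1.1e-04) and was named after its values were seen.

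Among nectin-like receptors and afadin partners 2 of 5 rose and 2 fell. Without AlCl3 3 or without control 1, 1 rose, and with the GC and length trend taken out, 1 fell. Pvr (a nectin-like receptor that binds Nectin3) rose to 8.44 ± 0.392 FPKM in AlCl3, against 5.36 ± 0.459 FPKM in controls (log2 fold change 0.57, limma adjusted p = 0.0020). Sorbs3 (vinexin, a vinculin-binding adaptor) fell by 0.52 (adjusted p = 0.0054), but by 0.05 with the GC and length trend taken out (adjusted p = 0.54), and its call was also lost after rescaling to TPM (adjusted p = 0.053). Ssx2ip (the afadin-binding protein ADIP) had a log2 fold change of 0.23 (adjusted p = 0.17). Cadm4, a nectin-like adhesion molecule named after its values were seen, stood at 0.408 ± 0.0798 FPKM in AlCl3 and 5.27 ± 0.830 FPKM in controls (log2 fold change -2.15, limma adjusted p = 4.0e-06).

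Of 17 actin linkers 5 rose and 6 fell, and with the GC and length trend taken out 8 were higher and 5 lower. Zyx (zyxin, found where actin bundles meet junctions under tension) fell to 59.8 ± 4.78 FPKM in AlCl3, against 156 ± 22.2 FPKM in controls (log2 fold change -1.36, limma adjusted p = 4.2e-05). Cfl1 (cofilin, which severs actin filaments) rose by 0.52 on the log2 scale (adjusted p = 0.0068). Actn4 (alpha-actinin, which crosslinks actin) had 0.20 (adjusted p = 0.25), and 0.48 (adjusted p = 0.0015) with the GC and length trend taken out. In the list of cadherin turnover and tyrosine phosphorylation 3 of 14 rose and 5 fell. The lower count was 3 without AlCl3 1, control 2 or control 3 and 2 after rescaling to TPM. Csk (the kinase that restrains Src) fell by 0.52 (adjusted p = 0.0070), and its value was 0.03 (adjusted p = 0.79) with the GC and length trend taken out. Its call was also lost after rescaling to TPM (adjusted p = 0.065). Ptpn1 (a phosphatase that acts on the cadherin complex) fell by 0.40 (adjusted p = 0.023). That call was lost without AlCl3 1, AlCl3 3, control 2 or control 3 (adjusted p from 0.068 to 0.096), with the GC and length trend taken out (0.21) and after rescaling to TPM (0.16). Src itself had -0.01 (adjusted p = 0.97), and 0.48 (adjusted p = 0.0010) with the GC and length trend taken out.

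Among small GTPases and their regulators 4 of 11 rose and 1 fell. The lower count was 0 without AlCl3 1 or control 2 and after rescaling to TPM, and 2 without control 1 or with the GC and length trend taken out. Cdc42 (which drives actin assembly at the junction) rose to 153 ± 14.3 FPKM in AlCl3, against 100.2 ± 9.08 FPKM in controls, or 0.60 on the log2 scale (limma adjusted p = 0.0034). Rap1b (which helps cadherin adhesion) rose by 0.70 on that scale (adjusted p = 9.5e-04). With the GC and length trend taken out, Cdc42 stood at 0.29 and Rap1b at 0.38 (adjusted p = 0.010 for each). Rac1 had 0.11 (limma adjusted p = 0.45). In the list of beta-catenin turnover and its nuclear partners 1 of 15 rose, 2 fell and 12 did not pass. With the GC and length trend taken out 5 were higher and 2 lower, and without control 1 the lower count was 4. Axin1, Csnk1a1 and Fbxw11, the most abundant genes of this list, had log2 fold changes of -0.29, 0.05 and -0.02 (limma adjusted p = 0.062, 0.74 and 0.91). The called genes of this list were named after their values were seen. Gsk3b fell by 0.71 and Pygo2 by 0.57, while Zbtb33 rose by 0.92 (limma adjusted p = 0.0028, 0.0060 and 0.0012). Axin1 passed as lower without control 1 (-0.40, adjusted p = 0.0095) and with median-ratio scaling (-0.29, adjusted p = 0.045), but stood at 0.06 (adjusted p = 0.51) with the GC and length trend taken out. Among cadherin repressors 1 of 6 rose and 3 fell. Twist1 fell by 0.95 and Snai2 by 0.72 on the log2 scale, while Snai1 had 0.35 (limma adjusted p = 2.6e-04, 0.0015 and 0.15). Snai1 passed as higher without control 3 (0.52, adjusted p = 0.033) and with the GC and length trend taken out (0.90, adjusted p = 0.0014), which brought the higher count to 2 in both. Twist1 stood at -0.42 (adjusted p = 0.014) in the fit without that trend.

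**Figure D4:**
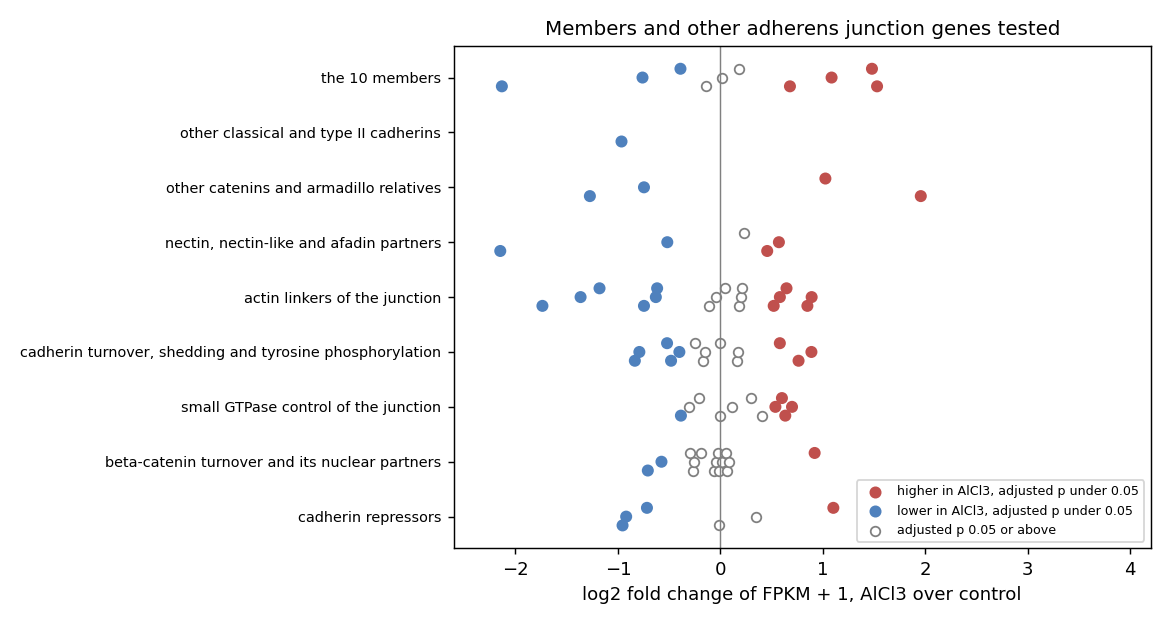
Log2 fold change of FPKM + 1, AlCl3 over control (horizontal axis), for the 10 members and the 73 other junction genes tested, 1 row per list. Filled points passed an adjusted p of 0.05 (red higher, blue lower in AlCl3) and open points did not. The members lie between -2.13 for Nectin2 and 1.53 for Ctnnb1.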

How the data were processed

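RNA-seq of TM4 cells was deposited as 1 table of FPKM values, 1 column per library and 24354 genes by Ensembl identifier. The submitters' processing notes name HISAT2 2.1.0 and the GRCm38 build. The deposited FPKM scale, as read from the values, is reads per kilobase of exon over the reads in genes of the library. Which counter, annotation, strand setting or filter the authors used is not given in the sources here. GENCODE mouse release 21 (GRCm38) supplied symbols, coordinates and exon lengths for 24300 of the identifiers. Multiplied by exon length, the values of 98.6% of genes were whole reads within a tolerance of 0.01 in all 6 libraries. Nectin1 and Afdn were whole with lengths of 6562 and 10325 bases in place of 5653 and 10223. Members held 124 to 8241 reads in a library. In a gene of 1 kilobase, 1 read was worth 0.0568 to 0.0736 FPKM and 3 reads, the floor, 0.170 to 0.221 FPKM, a limit of counting error alone. The 6 libraries all differed from each other.

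Groups and replicate numbers came from the sample titles. The test was that of limma (3.58.1, under R 4.3.3), two-sided with a mean-variance trend, on log2(FPKM + 1). It took the 11202 genes whose FPKM averaged 1 or more, with Benjamini-Hochberg adjustment over them and a threshold of 0.05. This scale understates changes of low genes. Ratios of 8 member pairs within a library were compared by exact permutation. The fit was first tried on simulated data with known changes and without a GC trend, and no result here rests on that trial. Similar transcripts were searched with BLAST 2.17.0 (at least 95% identity over at least 200 bases). Alternatives were a pseudocount of 0.1, no filter, a mean of at least 5 FPKM, median-ratio scaling, TPM, removal of the GC and length trend, a replicate block, leaving out each library, and limma with voom weights on recovered reads, the last added after the data were seen. The members, lists and rules were chosen with earlier results of these data known. All members were named, and of each junction list up to 3 tested genes, those of highest mean FPKM. Of each marker list only the gene of highest mean FPKM was to be named. Arvcf, Cadm4, Cdh1, Cdh5, Gsk3b, Pygo2 and Zbtb33 were named outside these rules, after their values were seen. So were the Sertoli markers Gata4, Sox9, Wt1, Amh, Dhh and Inha.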

Additional observations from a re-analysis of the deposited data

How the results depend on the processing

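The count of members was 4 or 5 higher and 2 or 3 lower under all 14 alternatives, and Cdh2, Cdh11, Ctnna1, Ctnnb1, Jup and Nectin2 kept their direction and call in each. No alternative changed how reads were divided between Cdh11 and the 7 genes like part of it. The sets tested differed. At a mean of at least 5 FPKM, 7 members were tested, and 2416 of 7168 genes were higher and 2260 lower. With no filter, 3600 of 24354 genes were higher and 3865 lower. Over all genes, counts ranged from 2416 to 3997 higher and from 2260 to 3865 lower, and over the junction lists from 14 to 27 higher and from 17 to 25 lower, each within 1.5 times the value given. Rescaling to TPM moved the median log2 fold change of all genes to 0.13, against 0.03. Some signs turned. Removal of the GC and length trend gave -0.14 for Ctnnd1, 0.35 for Nectin1, -0.027 for Ssx2ip, 0.025 for Csk, 0.48 for Src (adjusted p = 0.0010), -0.079 for Rac1, 0.064 for Axin1 and -0.18 for Csnk1a1. TPM gave 0.11 for Src and 0.10 for Fbxw11. Leaving out each library in turn gave ranges across 0 for Ctnnd1 (-0.057 to 0.11), Src (-0.14 to 0.083), Fbxw11 (-0.10 to 0.034) and Csnk1a1 (-0.034 to 0.12). The difference in the log2 ratio of Ctnnb1 over Cdh2 was 0.050 with a pseudocount of 1 (exact p = 0.8), against -0.17. The cause of these turns was not tested. Same-numbered libraries deviated together with correlations of 0.20, 0.097 and 0.39, while those of differently numbered libraries ran from -0.36 to 0.17. Deviations from a group mean cancel within the group, so these correlations are not independent and cannot decide whether same-numbered libraries share a batch. The labels link such libraries only by their number. With the replicate number as a block, 3778 genes were higher and 3597 lower, against 3490 and 3379, and the members' counts stayed at 4 and 3. Among the junction genes named for their abundance, Axin1 alone changed its call in that fit, passing as lower (-0.29, limma adjusted p = 0.047). Count models on recovered reads were planned and not run, since the deposited unit is FPKM, and voom took their place with 4 and 3 members called. Ctnnd1, Nectin1 and Nectin3 rest on 124 to 435 reads in a library.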
